A study of Mus musculus with 2 samples.

Results

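Neural crest cells of mid-gestation mouse embryos were picked out by *Sox10*, a transcription factor gene that marks the crest as it leaves the neural tube. A cell was taken when it had at least 2 spliced *Sox10* UMIs (unique molecular identifiers, 1 for each captured RNA molecule) and when the embryonic globin genes *Hba-x*, *Hbb-bh1* and *Hbb-y* together made up less than 0.5% of its spliced UMIs. The rule gave 294 of 18233 cells. Of these, 122 of 8981 came from the tdTom+ library (tomPOS) and 172 of 9252 from the tdTom- library (tomNEG). The cells were selected on *Sox10*, so its own level is a description and not a finding.

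The study made chimeric embryos to follow, cell by cell, what loss of Gata1, an X-linked erythroid transcription factor, does in the embryo. The tomPOS cells descend from 1 male tdTomato-expressing embryonic stem cell clone with a 38 bp frameshift deletion in exon 4 of *Gata1*, which was injected into C57BL/6 blastocysts at E3.5. The tomNEG cells are the wildtype host cells of the same pool of 6 chimeric embryos, so both fractions developed side by side in the same embryos, and the labels give no sex for the hosts. The label of the tomPOS library gives E8.5 and that of the tomNEG library E8.6, although both came from that pool. Each fraction is 1 droplet library, so no test between the fractions was possible, and every interval below is an exact 95% interval that covers counting error only.

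The neural crest forms where the neural plate meets the surface ectoderm, under Wnt, BMP and FGF signals. Border genes such as *Pax3*, *Pax7*, *Msx1* and the Tfap2 family come first, and specifier genes such as *Foxd3*, *Sox9*, *Snai1* and *Sox10* follow. Crest cells then lose epithelial contacts, leave the neural folds and migrate, and later make peripheral neurons, glia, melanocytes and the skeleton of the face.

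The selected cells were well measured. They held 2694185 spliced UMIs in all in tomPOS and 3457984 in tomNEG, with a median of 20511 spliced UMIs and 4823 genes per cell in tomPOS, and 18520 and 4710 in tomNEG. The other low-globin cells had medians of 16949 and 15286 spliced UMIs. The mitochondrial share was 1.58% and 1.60% in the selected cells, against 1.97% and 1.91% in the others. Scrublet, a doublet caller, marked 7 of the 122 and 9 of the 172 cells, and these were kept. The libraries shared 18 cell barcodes, of which 0 belonged to a selected cell. At the edge of the rule, a further 96 tomPOS and 127 tomNEG cells had 1 *Sox10* UMI, and 56 (45.9%) and 58 (33.7%) of the selected cells had exactly 2. The highest globin share inside the rule was 0.101% in tomPOS and 0.271% in tomNEG. Outside it, 6 and 5 cells had at least 2 *Sox10* UMIs with a globin share from 0.732% and 0.567% upwards.

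The other defining markers, which the rule did not use, were present in most of the cells. *Foxd3*, a forkhead repressor that keeps crest cells undifferentiated, had a UMI in 81.1% of the tomPOS cells (73.1% to 87.7%) and in 78.5% of the tomNEG cells (71.6% to 84.4%). It had one in 1.99% and 2.17% of the other low-globin cells. In cells above the globin limit, which should lack it, the share was 0.633% and 1.40% at median depths of 22036 and 19157 spliced UMIs. *Tfap2a*, a border and crest regulator that the surface ectoderm also uses, had a UMI in 75.4% (66.8% to 82.8%) and 79.1% (72.2% to 84.9%) of the selected cells, in 10.1% and 9.01% of the others, and in 2.45% and 2.85% of the high-globin cells. Beside *Sox10*, which the rule required, the label of neural crest rested on these markers, with both *Foxd3* and *Tfap2a* in 61.5% and 64.0% of the cells and neither in 6 (4.92%) and 11 (6.40%). Cells just outside the rule, with 1 *Sox10* UMI, had *Foxd3* in 39.6% and 29.9% and *Tfap2a* in 51.0% and 41.7%. Those just inside, with 2, had *Foxd3* in 83.9% and 74.1% and *Tfap2a* in 83.9% and 70.7%. Thinning cells to 5000 spliced UMIs, which left out shallower cells (0 tomPOS and 2 tomNEG selected cells, and 139 and 289 of the others), gave *Foxd3* in 54.9% and 47.6% of the selected cells and in 1.21% and 1.41% of the others.

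Promoter sequences of 4 of the genes most raised in these cells are printed as examples with at least 1 match to a motif of a crest factor, from RefSeq on build GRCm38.p6. They are *Foxd3* (chr4:99656049-99656298, plus strand), *Tfap2b* (chr1:19211804-19212053, plus strand), *Apod* (chr16:31314809-31315058, minus strand) and the first listed start of *Nr2f1* (chr13:78198874-78199123, minus strand). Each runs 5′ to 3′ over the 250 bases before the start. Capitals mark every match, on either strand, to the E-box CANNTG that Snail and bHLH proteins bind, to the SOX cores ACAAT and ACAAAG, or to the TFAP2 core GCCNNNGGC. No match overlapped another in these 4.
Foxd3: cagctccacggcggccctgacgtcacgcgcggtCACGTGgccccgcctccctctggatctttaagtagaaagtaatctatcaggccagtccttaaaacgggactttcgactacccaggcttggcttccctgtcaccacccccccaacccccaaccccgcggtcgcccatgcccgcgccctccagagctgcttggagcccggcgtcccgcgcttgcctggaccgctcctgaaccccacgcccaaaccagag
Tfap2b: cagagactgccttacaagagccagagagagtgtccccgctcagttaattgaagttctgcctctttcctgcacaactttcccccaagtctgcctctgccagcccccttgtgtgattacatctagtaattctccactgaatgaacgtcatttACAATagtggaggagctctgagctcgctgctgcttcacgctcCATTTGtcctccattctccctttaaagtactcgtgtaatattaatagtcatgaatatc
Apod: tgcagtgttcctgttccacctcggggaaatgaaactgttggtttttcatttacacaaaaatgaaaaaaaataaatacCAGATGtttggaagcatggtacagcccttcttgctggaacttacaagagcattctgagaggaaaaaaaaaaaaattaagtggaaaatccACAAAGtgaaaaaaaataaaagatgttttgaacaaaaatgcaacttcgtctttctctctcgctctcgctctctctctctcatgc
Nr2f1: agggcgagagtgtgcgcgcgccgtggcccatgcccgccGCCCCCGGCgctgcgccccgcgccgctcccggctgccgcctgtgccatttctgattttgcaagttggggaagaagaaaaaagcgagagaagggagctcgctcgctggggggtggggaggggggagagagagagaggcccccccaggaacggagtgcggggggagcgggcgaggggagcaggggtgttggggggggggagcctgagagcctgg
The motifs are short and common. Over the 79 starts of the 60 genes that could be matched among the 84 raised genes described next, CANNTG was found in 48.1% against 66.2% of all 32841 promoters, ACAAT in 24.1% against 27.7%, ACAAAG in 16.5% against 16.5%, and GCCNNNGGC in 21.5% against 13.7%. These shares are descriptions and no match is a shown binding site.

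Crest genes led the profile of these cells. Against all other low-globin cells of the same library, 84 of 5709 genes (1.47%) were at least 2-fold higher in both libraries and 73 (1.28%) at least 2-fold lower, among genes with at least 100 UMIs over the selected cells. This minimum counts UMIs of the selected cells, so a gene nearly absent from them was not tested and could not be counted as lower. Since the rule picked the cells by 1 of the crest genes, this comparison is a description of what the cells contain. Levels are given as CPM (UMIs summed over the cells and scaled to a total of 1000000 spliced UMIs), and as 3′ tag counts they are compared between groups and not between genes.

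**Figure D1:**
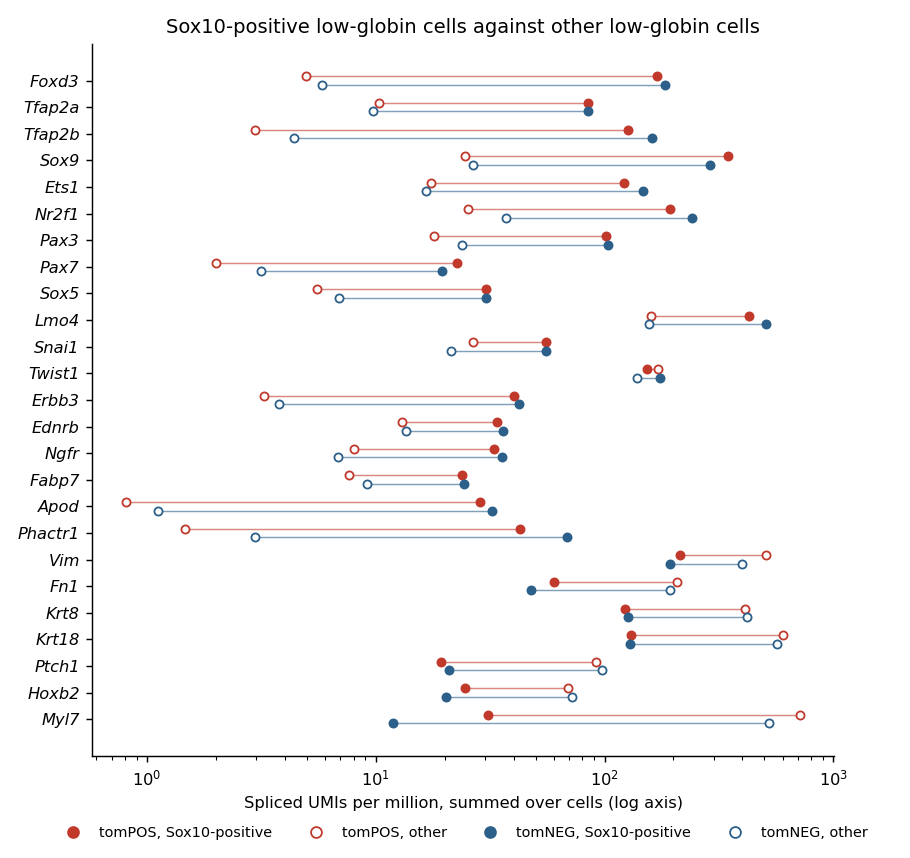
Level of 25 genes, as CPM of summed spliced UMIs on a log axis, in the Sox10-positive low-globin cells (filled) and the other low-globin cells (open) of the tomPOS (red) and tomNEG (blue) library. Crest genes such as *Foxd3* (169 and 184 CPM) lie far right of the other cells (4.96 and 5.79 CPM), while *Krt18*, *Ptch1* and *Myl7* lie to the left.

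Among the genes of the neural plate border, *Tfap2b* ranked first of all genes tested by the lower of its log2 folds in the 2 libraries. It reached 127 CPM in tomPOS and 162 CPM in tomNEG, against 2.96 and 4.41 CPM in the others, which is a log2 fold of 5.43 (5.21 to 5.64) and 5.20 (5.03 to 5.38). *Pax3* was at 101 and 103 CPM against 17.9 and 23.7 CPM. *Pax7*, which marks early crest progenitors, was at 22.6 and 19.4 CPM against 2.00 and 3.15 CPM, and *Tfap2c* at 25.6 and 24.3 CPM against 5.25 and 10.0 CPM. These were the 4 of 10 tested border genes that were at least 2-fold higher in both libraries, with a list median log2 fold of 1.59 and 1.07 against 0.00 and 0.01 over all genes tested. *Msx1*, a BMP target of the border, was at 130 and 74.9 CPM against 119 and 111 CPM in the others and so did not stand out.

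Of the specifier genes, 6 of 14 tested were at least 2-fold higher and 0 lower, with medians of 1.06 and 0.82. *Sox9*, the SoxE gene that acts before *Sox10*, was at 345 and 289 CPM against 24.6 and 26.6 CPM. *Ets1*, a marker of cranial crest leaving the neural folds, was at 122 and 147 CPM against 17.5 and 16.6 CPM. *Nr2f1*, an orphan nuclear receptor, was at 194 and 240 CPM against 25.3 and 37.2 CPM. The other 3 were *Sox5*, *Lmo4* and *Snai1*, with *Snai1* at 55.3 and 55.5 CPM against 26.5 and 21.4 CPM. *Snai2* was nearly absent, with 5 and 8 UMIs in all, and so was not among the genes tested. It was at 2.62 and 2.63 CPM in the selected cells with 2 *Sox10* UMIs, against 22.3 and 18.3 CPM in low-globin cells with 0. *Sox8* had 3 and 4 UMIs. *Twist1*, which head mesenchyme also uses, was at 154 and 174 CPM against 171 and 139 CPM, within 2-fold of the others in both libraries.

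*Foxd3* itself was at 169 CPM in tomPOS and 184 CPM in tomNEG against 4.96 and 5.79 CPM, a log2 fold of 5.09 (4.92 to 5.27) and 4.99 (4.83 to 5.15). Its neighbour *Gm12688*, a long intergenic non-coding RNA gene that runs away from *Foxd3* on the opposite strand, was second in the ranking. *Gm12688* (chr4:99653607-99654983) and *Foxd3* (chr4:99656299-99658622) lie 1315 bases apart on GRCm38. *Gm12688* had 28.6 and 27.5 CPM in the selected cells against 0.530 and 0.748 CPM in the others, and had a UMI in 41.8% and 36.6% of the cells against 0.632% and 0.850%. Whether the assay separated these divergent transcripts fully was not tested.

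Some receptors for guidance and survival cues were higher in the crest cells. Of 16 guidance and migration genes tested, 6 were at least 2-fold higher in both libraries (*Erbb3*, *Ngfr*, *Ednrb*, *Cxcr4*, *Robo1* and *Plxna4*) and 1 was lower (*Nrp1*), with medians of 0.46 and 0.69. The other 28 of the 44 listed had fewer than 100 UMIs, and the summed level of the list was 673 and 683 CPM against 707 and 736 CPM in the others. *Erbb3*, the neuregulin receptor of crest and Schwann cell precursors, was at 40.1 and 42.2 CPM against 3.24 and 3.78 CPM. *Ednrb*, the endothelin 3 receptor, was at 33.8 and 36.1 CPM against 13.0 and 13.6 CPM. *Ngfr*, the p75 neurotrophin receptor used to sort crest stem cells, was at 32.7 and 35.6 CPM against 8.06 and 6.82 CPM. *Gfra1*, a GDNF co-receptor with fewer than 100 UMIs and so not tested, was at 9.28 and 10.7 CPM against 0.810 and 1.20 CPM. *Ret*, its signalling partner, had 4 and 13 UMIs.

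Of 11 delamination, adhesion and matrix genes tested, 0 were at least 2-fold higher in both libraries and 3 were lower, with medians of -0.53 and -0.45. The 3 were *Vim* (213 and 194 CPM against 508 and 398 CPM), *Fn1* for fibronectin (60.1 and 47.7 CPM against 208 and 194 CPM) and *Sparc* (88.3 and 104 CPM against 272 and 325 CPM). *Cdh2*, the cadherin of the neural plate, was at 25.2 and 26.9 CPM against 40.6 and 47.5 CPM. Below the minimum of 100 UMIs, *L1cam* stood far above the others with 12.2 and 10.1 CPM against 0.604 and 0.595 CPM, and *Cdh19*, a cadherin of crest-derived glia, with 2.97 and 5.21 CPM against 0.0295 and 0.0680 CPM.

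Genes of the crest-inducing signals were mostly not higher in the crest cells themselves. Of 20 tested, 1 was at least 2-fold higher (*Wnt1*) and 5 were lower (*Wnt6*, *Smad7*, *Bambi*, *Fgf8* and *Ptch1*), with medians of -0.12 and -0.62. *Wnt1*, the dorsal neural tube ligand, was at 17.1 and 32.1 CPM against 2.92 and 4.91 CPM. *Ptch1*, the Hedgehog receptor and target, was at 19.3 and 20.8 CPM against 91.7 and 97.6 CPM, a log2 fold of -2.25 and -2.23. *Crabp1*, a retinoic acid binding protein of cranial crest and hindbrain, was at 1116 and 1168 CPM against 494 and 603 CPM, and lay on either side of the 2-fold line with log2 folds of 1.18 and 0.95.

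Few transcripts of the later derivatives were found. *Fabp7*, a gene of early glia, was at 23.8 and 24.3 CPM against 7.67 and 9.12 CPM. *Mbp*, with 12 and 23 UMIs, and *Lgi4*, with 11 and 18 UMIs, were low but above the others, whereas *S100b* and *Gfap* had 0 UMIs in both libraries. Of the neuronal genes, *Tubb3* was at 102 and 85.0 CPM against 17.7 and 30.4 CPM, while *Neurog1*, *Neurod1*, *Dcx*, *Th* and *Dbh* had 0 UMIs. The melanocyte genes *Dct* and *Tyrp1* had 0 UMIs and *Mitf* 6 and 8. Of the genes of face skeleton precursors, *Dlx2* was at 14.8 and 14.5 CPM against 1.33 and 0.961 CPM, *Prrx2* was level with the others at 115 and 114 CPM against 130 and 117 CPM, and *Runx2* had 0 UMIs. A count of 0 allows up to 3 UMIs over the cells of a library. Cell cycle genes were level with the other cells, with 0 of 40 S-phase genes past 2-fold and 1 of 50 G2M-phase genes (*Gas2l3*) higher.

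Outside the lists, the genes that ranked highest included *Apod*, *Fam81a*, *Phactr1*, *Pak3* and *Sdc3*. *Apod*, a lipid carrier of the lipocalin family, was at 28.6 and 32.1 CPM against 0.810 and 1.12 CPM. *Phactr1*, a regulator of actin and protein phosphatase 1, was at 42.7 and 68.5 CPM against 1.47 and 2.97 CPM. Its spliced transcripts set the cells apart, since 35.4% and 26.6% of its UMIs in the selected cells were unspliced against 92.4% and 89.7% in the others. For *Sox10* the unspliced share was 32.5% (28.6% to 36.5%) and 27.3% (24.4% to 30.4%) in the selected cells and 49.7% and 40.4% in the others, which have at most 1 spliced *Sox10* UMI by the rule. *Tfap2b*, not used by the rule, had 39.8% and 39.9% against 40.1% and 40.2%, so the spliced and unspliced layers of *Tfap2b* were higher together.

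Genes of other tissues were lower. The 10 lowest of the genes tested, a list made after the values were seen, were *Myl7*, *Actc1*, *Acta2*, *Phlda2*, *Igf2*, *Spin2c*, *Hoxaas3*, *Tpm1*, *Ptch1* and *Krt18*. *Myl7*, the atrial myosin light chain, was at 30.8 and 11.9 CPM against 718 and 524 CPM. *Krt18* was at 130 and 129 CPM and *Krt8* at 123 and 127 CPM, against 604 and 570 CPM and 411 and 420 CPM. The summed marker lists of the other cell types were all lower than in the other low-globin cells. Mesoderm genes summed to 43.8 and 28.1 CPM against 237 and 257 CPM, heart muscle genes to 92.1 and 33.0 CPM against 1957 and 1537 CPM, and endothelial genes to 39.7 and 24.9 CPM against 156 and 128 CPM. Neuroepithelium genes summed to 53.8 and 92.3 CPM against 161 and 311 CPM, and surface ectoderm genes to 413 and 383 CPM against 1337 and 1371 CPM. Otic genes summed to 105 and 114 CPM against 136 and 187 CPM, and endoderm genes to 38.2 and 260 CPM against 182 and 350 CPM, with the tomNEG value resting on 1 cell described below. The blood list, which holds the globin genes of the rule, summed to 195 and 852 CPM against 415 and 887 CPM. Free RNA and mixed droplets as sources of these low levels were not tested.

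The profile was next set against the cells most like the crest, in place of the whole embryo. Gates were drawn among cells without a *Sox10* UMI and below the globin limit. The neural plate gate took cells with at least 2 *Sox2* UMIs and no *Epcam* (779 tomPOS and 1657 tomNEG cells). The surface ectoderm gate took cells with at least 2 *Tfap2a* and 2 *Epcam* UMIs (276 and 210), and the mesenchyme gate cells with at least 2 *Pdgfra* and 2 *Twist1* UMIs and no *Epcam* (431 and 373). Of 5704 genes that define none of the gates, 50 were at least 2-fold higher in the crest cells than in all 3 gates in both libraries. Among those with the largest folds were *Gm12688*, *Foxd3*, *Apod*, *Fam81a*, *Phactr1*, *Tfap2b* and *Rhoj*, and the 50 also held *Sox9*, *Ets1*, *Nr2f1*, *Ngfr*, *Sox5*, *Pax7*, *Pax3*, *Ednrb*, *Lmo4* and *Robo1*.

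**Figure D2:**
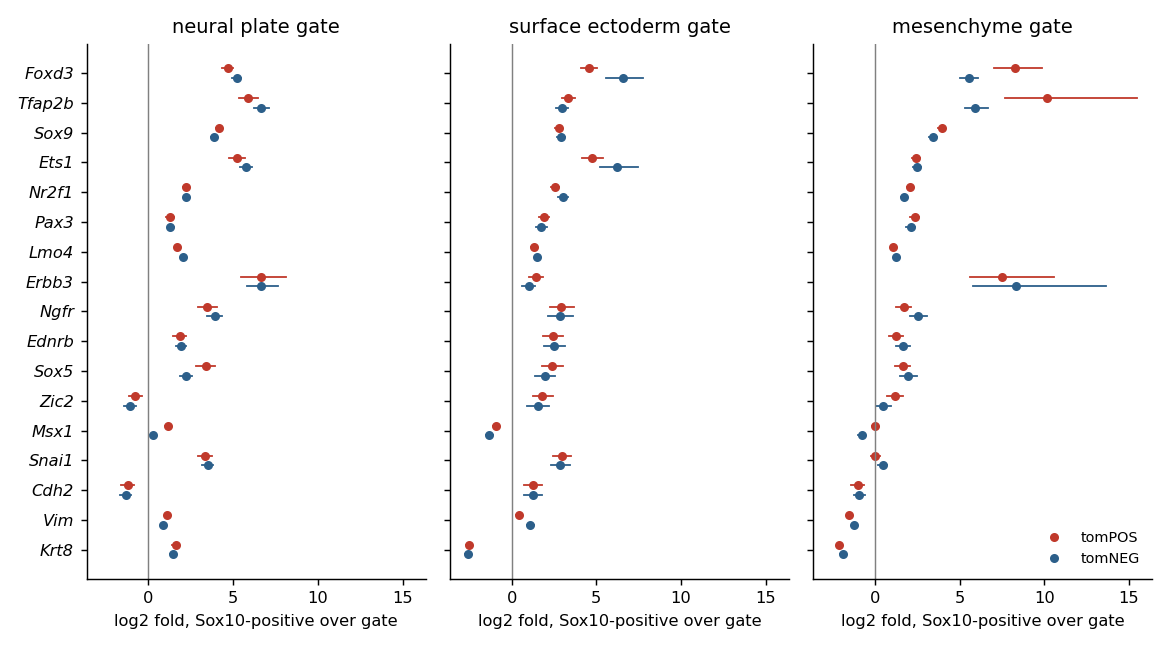
Log2 fold of the Sox10-positive low-globin cells over each of 3 gates of cells with 0 Sox10 UMIs, for tomPOS (red) and tomNEG (blue), with lines for the exact 95% counting intervals. *Foxd3*, *Sox9* and *Ets1* lie right of 0 in each gate, whereas *Msx1*, *Cdh2*, *Vim* and *Krt8* change side between gates.

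Other genes were shared with 1 neighbour. *Snai1* was at 5.41 and 4.92 CPM in the neural plate gate and at 7.08 and 7.63 CPM in the surface ectoderm gate, far below the crest cells, but at 54.6 and 40.0 CPM in the mesenchyme gate, where the log2 fold was 0.02 (-0.25 to 0.29) and 0.47 (0.20 to 0.74). *Erbb3* was at 0.401 and 0.425 CPM in the neural plate gate and 0.222 and 0.133 CPM in the mesenchyme gate, but at 14.9 and 21.2 CPM in the surface ectoderm gate. *Zic2* was higher in the neural plate gate (42.4 and 48.7 CPM against 24.9 and 22.8 CPM in the crest cells) and lower in the surface ectoderm gate (7.08 and 7.88 CPM). *Msx1* was highest in the surface ectoderm gate at 248 and 187 CPM. *Vim*, lower in the crest than in the whole of the other cells, was above the neural plate gate (98.3 and 107 CPM) and below the mesenchyme gate (608 and 465 CPM). Unlike the 50 genes above all 3 gates, *Snai1*, *Zic2*, *Msx1* and *Vim* were thus within 2-fold of, or below, at least 1 gate in each library, while *Erbb3* was nearest to the surface ectoderm gate, with log2 folds of 1.43 (1.01 to 1.86) and 1.00.

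Levels also moved with the number of *Sox10* UMIs in the cell. Since cells with more *Sox10* were slightly deeper (median 18246 spliced UMIs at 2 and 23817 at 5 to 9 in tomPOS, 17588 and 20064 in tomNEG), levels are given as CPM. *Phactr1* went from 7.56 CPM at 1 *Sox10* UMI to 35.8, 41.3 and 67.4 CPM at 2, 3 to 4 and 5 to 9 in tomPOS, and from 22.6 to 48.1, 79.8 and 76.5 CPM in tomNEG. *Sox5* went from 9.07 CPM at 1 to 23.6, 31.9 and 43.1 CPM in tomPOS, and from 12.5 to 19.3, 38.3 and 34.0 CPM in tomNEG. *Krt8* was at 321 and 322 CPM at 1 UMI and at 149 and 137 CPM at 2, and *Epcam* ended at 48.5 and 29.3 CPM at 5 to 9. *Wnt1* had its highest level at 1 UMI in tomPOS (23.2 CPM) and at 2 in tomNEG (51.6 CPM), and its lowest among *Sox10*-expressing cells at 5 to 9 (10.8 and 14.2 CPM). Set against cells with 1 *Sox10* UMI, those with 5 to 9 thus had higher levels of *Phactr1* and *Sox5* and lower levels of *Krt8*, *Epcam* and *Wnt1*. These levels are given without intervals. The tomPOS group at 5 to 9 holds 15 cells, so a low level such as that of *Wnt1* rests on few UMIs there. *Foxd3* had no common direction above 2 UMIs, with 169, 144 and 251 CPM in tomPOS and 221, 174 and 161 CPM in tomNEG.

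**Figure D3:**
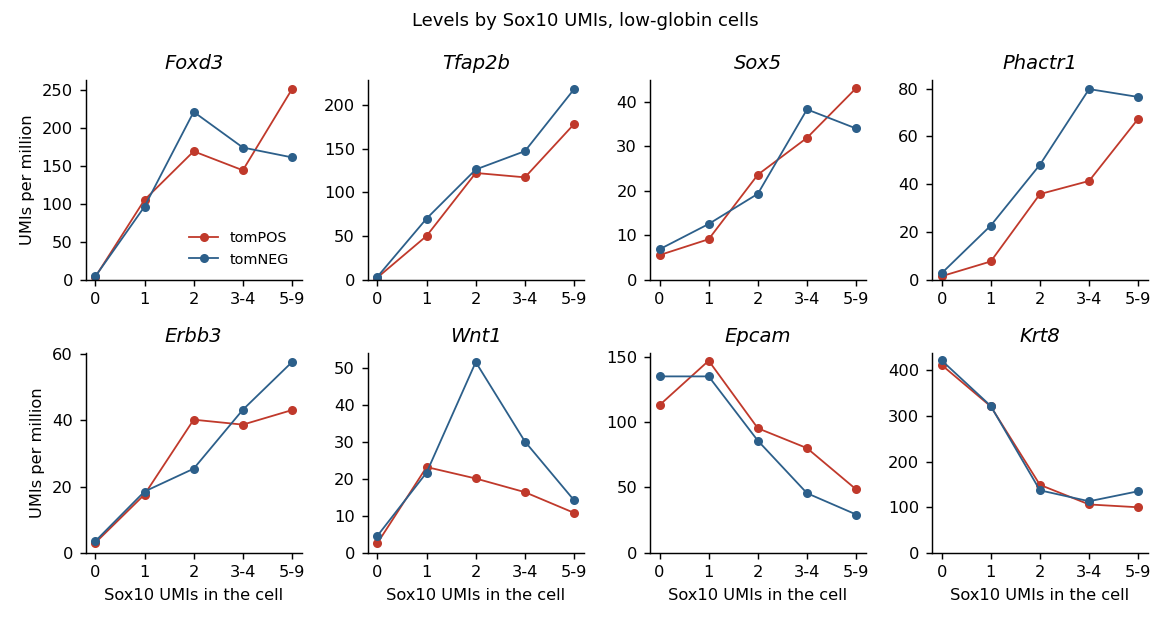
Level of 8 genes (CPM, linear axes from 0) in low-globin cells grouped by their number of Sox10 UMIs, for tomPOS (red) and tomNEG (blue). The groups hold 56, 50 and 15 tomPOS and 58, 65 and 48 tomNEG cells at 2, 3 to 4 and 5 to 9 UMIs, and the 1 cell per library with 10 or more is not drawn. *Erbb3*, *Phactr1* and *Sox5* are higher, and *Epcam* and *Krt8* lower, from 2 UMIs on than at 0 or 1.

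Hox genes, which mark the hindbrain and trunk, were on in a minority of the crest cells. At least 2 Hox UMIs were found in 36 (29.5%, 21.6% to 38.4%) of the tomPOS and 34 (19.8%, 14.1% to 26.5%) of the tomNEG cells, against 70.3% and 68.7% of the other low-globin cells and 11.2% and 13.9% of the high-globin cells. Only 2 and 3 cells had at least 2 UMIs of *Otx2*, the forebrain and midbrain gene, without Hox, so 84 and 135 cells had neither. Thinned to 5000 UMIs per cell, the Hox share was 14.8% and 10.0%. It was 38.1% and 32.8% with 1 *Sox10* UMI as the minimum, and 33.3% and 13.2% with 3. The intervals of the libraries overlapped, and the tomNEG interval reached down to 14.1%, close to the 13.9% of its high-globin cells.

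Some genes, picked after their values were seen, differed between the Hox-positive cells and the cells with neither in the same direction in both libraries. *Crabp1* was at 2116 and 3036 CPM in them against 585 and 548 CPM in the cells with neither, a log2 fold of 1.85 (1.74 to 1.97) and 2.47 (2.37 to 2.56). *Fgf15*, a hindbrain and midbrain ligand, was at 29.5 and 47.5 CPM against 5.97 and 4.71 CPM, and *Wnt1* at 24.2 and 58.0 CPM against 12.5 and 23.9 CPM. *Msx3*, a gene of the dorsal neural tube, was at 32.6 and 38.3 CPM against 14.9 and 10.2 CPM. Lower in the Hox-positive cells were *Pax7* (10.5 and 8.11 CPM against 29.8 and 22.8 CPM), *Fabp7* (9.47 and 11.6 CPM against 32.2 and 28.7 CPM), *Apod*, *Phactr1* and *Erbb3*. *Foxd3* was at 187 and 228 CPM against 160 and 172 CPM, and *Tfap2a* at 68.4 and 80.0 CPM against 92.5 and 86.4 CPM, so both markers were within 2-fold on the 2 sides of the split. *Sox10* was at 124 and 125 CPM against 155 and 204 CPM.

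Further splits by *Wnt1* and by *Epcam* were chosen after the values were seen. At least 1 *Wnt1* UMI was found in 25 (20.5%) and 40 (23.3%) of the cells, against 2.29% and 3.26% of the other low-globin cells and 0.158% and 0.671% of the high-globin cells. *Foxd3* was at 273 and 290 CPM in them against 142 and 141 CPM in the rest, *Crabp1* at 2376 and 2176 CPM against 780 and 758 CPM, and *Lhx5*, a neural plate gene, at 31.7 and 29.0 CPM against 5.17 and 5.29 CPM. *Col1a2* was lower (15.9 and 18.0 CPM against 49.4 and 66.7 CPM), as were *Ngfr*, *Col9a1* and *Tubb3*. These genes were picked after their values were seen and stand for no gene group. The splits overlapped and are not separate groups of cells. Of the Hox-positive cells, 12 in tomPOS and 17 in tomNEG also had a *Wnt1* UMI, and 11 and 5 had at least 2 *Epcam* UMIs.

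At least 2 *Epcam* UMIs, a mark of epithelium, were found in 28 (23.0%, 15.8% to 31.4%) of the tomPOS and 15 (8.72%, 4.96% to 14%) of the tomNEG cells, against 17.5% and 18.8% of the other low-globin cells and 3.17% and 3.91% of the high-globin cells. The share was thus below that of the other cells in tomNEG, and the tomPOS interval held the 17.5% of its other cells. The intervals of the libraries did not overlap. *Msx1* was at 268 and 197 CPM in them against 75.7 and 58.9 CPM, *Dlx5* at 72.0 and 57.4 CPM against 8.29 and 9.16 CPM, and *Krt18* at 319 and 691 CPM against 55.4 and 55.3 CPM. *Sox9* was the same on both sides at 345 CPM in tomPOS, and at 305 against 287 CPM in tomNEG. *Itga4*, an integrin of migrating crest, was lower at 9.16 and 7.49 CPM against 27.5 and 39.6 CPM. The 15 tomNEG cells include the cell rich in yolk sac endoderm transcripts described below. It had 14 *Epcam* UMIs and 73 of the 446 *Krt18* UMIs of the tomNEG crest cells. The tomNEG level of *Krt18* thus rests in part on that cell. The *Epcam*-positive cells therefore had surface ectoderm transcripts together with the crest genes, and whether they were crest cells at the border or mixed droplets was not tested.

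Turning to the comparison of the fractions, crest cells made up 1.58% (1.31% to 1.88%) of the low-globin cells in tomPOS and 2.30% (1.98% to 2.67%) in tomNEG. The ratio of these shares was 0.686 (0.539 to 0.870), and 0.731 (0.575 to 0.927) when all barcodes were the denominator. The order depended on what the crest was set against. Per 100 cells of the neural plate gate there were 15.7 crest cells in tomPOS and 10.4 in tomNEG, whereas there were 44.2 and 81.9 per 100 cells of the surface ectoderm gate and 28.3 and 46.1 per 100 of the mesenchyme gate. The neural plate gate is defined by *Sox2*, which was itself lower in tomPOS (below), and cells above the globin limit numbered 1263 of 8981 in tomPOS and 1788 of 9252 in tomNEG. With 1 library per fraction, the genotype, the sort and the library cannot be told apart here.

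Like nearly all genes tested, the listed crest genes with at least 100 UMIs stayed within 2-fold between the fractions. Over the 5709 genes the median log2 fold of tomPOS over tomNEG was -0.03 in the crest cells, and 15 genes (0.263%) were at least 2-fold higher in tomPOS and 23 (0.403%) at least 2-fold lower. Of the 10 border, 14 specifier, 16 guidance, 11 delamination and 20 signal genes tested, 0 were past 2-fold in either direction. At the low shares over all genes, a count of 0 in lists of this size is not particular to crest genes. *Foxd3* was at 169 CPM in tomPOS and 184 CPM in tomNEG (log2 fold -0.12, -0.30 to 0.05), *Tfap2a* at 84.3 and 85.0 CPM (-0.01, -0.27 to 0.24), *Tfap2b* at 127 and 162 CPM (-0.35, -0.55 to -0.15) and *Sox9* at 345 and 289 CPM (0.26, 0.13 to 0.39). The widest gaps within these lists were *Wnt1* (17.1 and 32.1 CPM, -0.91), *Fgf8* (23.0 and 12.1 CPM, 0.92), *Nrp1* (25.2 and 14.2 CPM, 0.83), *Col9a1* (17.8 and 30.9 CPM, -0.80), *Msx1* (130 and 74.9 CPM, 0.80) and *Sp5*, a Wnt target (72.7 and 41.9 CPM, 0.79). The *Epcam*-positive cells described above, which had more *Msx1*, made up 23.0% of the tomPOS and 8.72% of the tomNEG crest cells. On each side of that split, *Msx1* was also higher in tomPOS than in tomNEG. Such folds are taken over all crest cells of a fraction, and the part of the cell mix in them was not tested. Listed genes under the minimum were not counted, and some of them differed more, such as *Cyp26a1*, a retinoic acid degrading enzyme, with 27 and 5 UMIs (log2 fold 2.79, 1.40 to 4.53), *Sema3f* with 12 and 3 UMIs, and *Wnt8b* with 0 and 12 UMIs. *Gata1* itself had 1 and 4 UMIs in the crest cells. Its loss could not be checked there, also because a UMI count does not show whether a transcript carries the deletion.

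**Figure D4:**
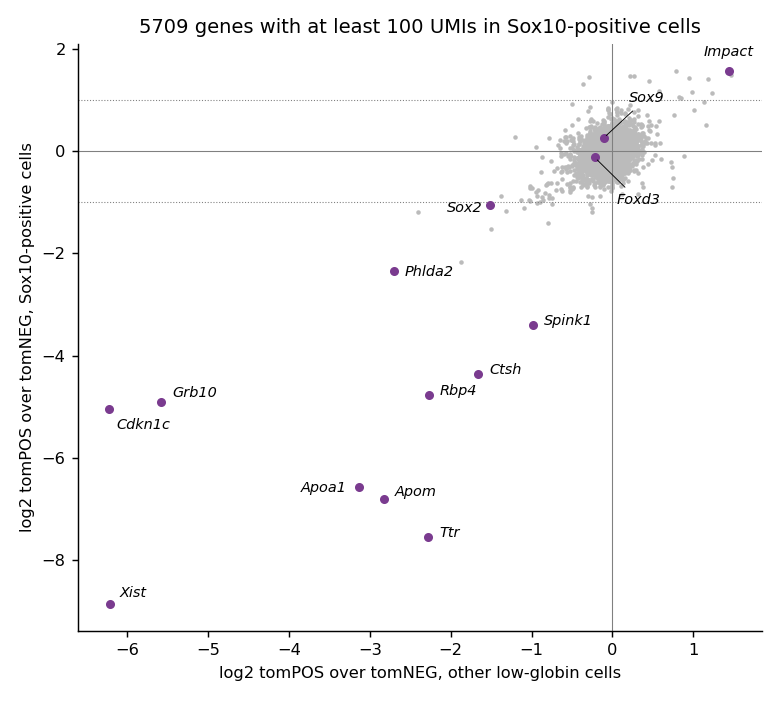
Log2 fold of tomPOS over tomNEG in the Sox10-positive low-globin cells (vertical) against the same contrast in the other low-globin cells (horizontal) for 5709 genes, with dotted lines at 2-fold. *Foxd3* (-0.12) and *Sox9* (0.26) lie in the central cloud, and *Xist*, *Cdkn1c* and *Grb10* lie at the lower left in both.

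The genes past 2-fold included genes of the sex chromosomes, imprinted genes, genes of yolk sac endoderm and a run of neighbouring genes on chromosome 3. *Xist*, the RNA of the inactive X, was at 0.742 CPM in tomPOS (2 UMIs) and 346 CPM in tomNEG, with at least 3 UMIs in 0 of 122 and in 90 of 172 cells (52.3%). The embryonic stem cell line was male. *Erdr1*, *Ddx3y* and *Eif2s3y*, which the annotation places on the Y chromosome, were higher in tomPOS (205 and 72.3 CPM, 41.6 and 15.3 CPM, 47.5 and 21.1 CPM). The tomato-td transcript had 0 UMIs in both libraries and could not check the sort.

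Members of the imprinted gene list made up 10 of the 38 genes past 2-fold. Of 18 tested, 6 were higher in tomPOS, which were *Impact*, *Slc38a4*, *Nnat*, *Peg10*, *Zdbf2* and *Kcnq1ot1*, all known to be expressed from the paternal allele. The 4 that were lower were *Cdkn1c*, *Grb10*, *Phlda2* and *Igf2r*, known as maternally expressed in most tissues. Within 2-fold, *Igf2*, known as paternally expressed, was lower in tomPOS (25.2 and 39.0 CPM, log2 fold -0.63, -1.07 to -0.20), and *H19*, known as maternally expressed, was higher (117 and 71.4 CPM, 0.71, 0.47 to 0.96), so the direction did not follow the parental allele throughout the list. *Grb10*, a growth factor receptor adaptor, was at 8.54 CPM in tomPOS and 256 CPM in tomNEG and had a UMI in 5.74% and 98.8% of the cells, a log2 fold of -4.91 (-5.57 to -4.31). *Cdkn1c*, a cell cycle inhibitor, was at 2.23 and 73.7 CPM. *Impact* was at 143 and 47.7 CPM and *Nespas*, from the imprinted *Gnas* locus and not in the fixed list, at 45.7 and 15.3 CPM. The other low-globin cells gave log2 folds of -5.58 for *Grb10*, -6.22 for *Cdkn1c* and 1.44 for *Impact*, so these differences were also present in the rest of the embryo. Of the 23 lower genes, all had a log2 fold below 0 in the other cells and 15 were past 2-fold there. Of the 15 higher genes, 13 had one above 0 and 4 were past 2-fold. As these libraries are the same in both comparisons, the agreement is not independent evidence.

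Genes of yolk sac endoderm rested on 1 tomNEG cell. It held 697 of the 720 *Ttr* UMIs of the tomNEG crest cells, 357 of 366 *Apoa1*, 141 of 145 *Apom*, 436 of 457 *Rbp4*, 101 of 106 *Ctsh* and 333 of 394 *Spink1* UMIs. It also had 2 *Sox10*, 10 *Foxd3* and 11 *Tfap2b* UMIs and, with 62780 spliced UMIs, was the deepest of the crest cells, although Scrublet did not call it. Without it, the log2 fold of tomPOS over tomNEG went from -4.78 to -0.36 for *Rbp4*, from -4.37 to 0.01 for *Ctsh* and from -3.40 to -0.74 for *Spink1*, and *Ttr*, *Apoa1* and *Apom* were left with 23, 9 and 4 UMIs in tomNEG against 3, 3 and 1 in tomPOS. *Grb10* (-4.93) and *Xist* (-8.85) hardly moved, and *Phlda2* went from -2.34 to -1.76. Of the 23 genes at least 2-fold lower in tomPOS, 20 were still past 2-fold without this cell, and 17 once the minimum of 100 UMIs was applied again.

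Other genes higher in tomPOS crest cells were *Msmo1*, *Actc1*, *Igfbp5*, *Myl7* and *Cdx4*. *Msmo1*, an enzyme of cholesterol synthesis, was at 64.2 CPM in tomPOS and 23.1 CPM in tomNEG (log2 fold 1.47, 1.08 to 1.87), against 0.27 in the other cells. *Actc1* and *Myl7*, genes of heart muscle, were at 25.6 and 9.25 CPM and at 30.8 and 11.9 CPM, while the summed heart list was at 92.1 and 33.0 CPM in the crest cells and at 1957 and 1537 CPM in the other cells. Even the high-globin cells had more of both genes than the crest cells, with *Actc1* at 58.3 and 56.9 CPM and *Myl7* at 100 and 74.0 CPM. Per crest cell, the summed heart list had a median of 42.5 CPM and a maximum of 2374 CPM in tomPOS. In tomNEG the median was 0 CPM and the maximum 731 CPM. The parts of single cells and of free heart RNA in these values were not tested. *Cdx4*, a gene of the posterior body, was at 39.0 and 15.6 CPM and came from 13 and 12 cells. With 1 *Sox10* UMI as the minimum its log2 fold was -0.07.

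A run of 18 neighbouring genes on chromosome 3, noticed after the values were seen, was lower in tomPOS. From *Zfp639* to *Sclt1* (chr3:32510259-41742514 on GRCm38, 9.23 Mb), all 18 consecutive genes with at least 100 UMIs had a log2 fold of tomPOS over tomNEG below -0.5, with a median of -0.94, a range over the genes from -1.40 to -0.64, and a counting interval below 0 in 18 of 18. The next longest run of lower genes held 2 genes. The other 249 tested genes of the chromosome had a median of -0.01, and the flanking genes *Sec62* and *Pcdh18* had log2 folds of 0.15 and 0.56. The run holds 5 of the 23 genes past 2-fold, which are *Actl6a*, *Fxr1*, *Dnajc19*, *Spata5* and *Sox2*.

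*Sox2*, the neural plate factor of the run, had 66 UMIs in the tomPOS and 175 in the tomNEG crest cells (24.5 and 50.6 CPM, log2 fold -1.05, -1.48 to -0.63). *Actl6a*, a chromatin remodelling subunit, had 334 and 933 UMIs. The cell cycle genes *Ccna2* (300 and 726 UMIs) and *Plk4* (86 and 214 UMIs) had log2 folds of -0.91 and -0.96. The other low-globin cells of the same libraries gave a median of -0.94 over the same 18 genes, with a range from -1.51 to -0.78, and among their genes with at least 1000 UMIs all 32 inside the stretch were below 0, with a median of -1.01 against -0.03 for 430 outside it. In those other cells *Zmat3* (-1.21) and *Pik3ca* (-1.03), just before *Zfp639* and counted as outside, were lower as well, so the stretch began before *Zfp639* there. Both had fewer than 100 UMIs in the crest cells and were not compared in them. The run was therefore not particular to the crest, and its cause was not tested.

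**Figure D5:**
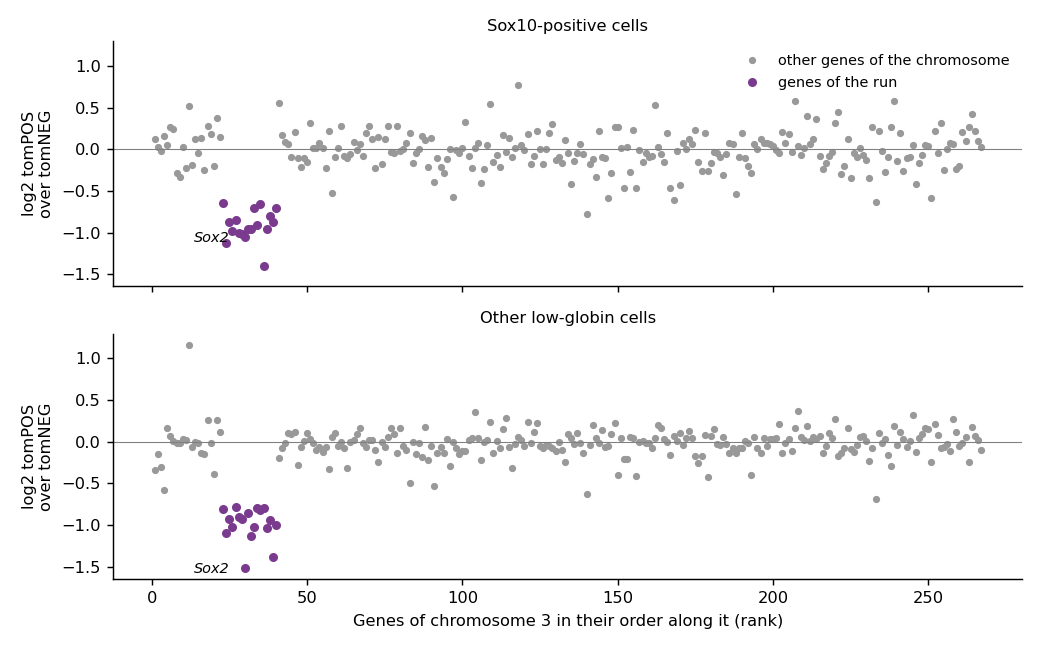
Log2 fold of tomPOS over tomNEG for the tested genes of chromosome 3 in their order along it, in the Sox10-positive low-globin cells (top) and the other low-globin cells (bottom), with the 18 genes of the run in purple. The run sits near -0.94 in both panels, while the other genes scatter around 0.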

How the data were processed

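Cells of 2 droplet libraries (10x Genomics, 3′ version 3) were used, 1 per fraction. Per the labels and the study's methods, the authors mapped to mm10 in Cell Ranger 3.0.2 and split the counts into spliced and unspliced UMIs by velocyto. The deposited tables hold these counts per gene and cell as whole numbers, without normalization. A mitochondrial percent per cell was also deposited by the authors and was used as a description.

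Cells were selected on spliced counts, summed over cells per library and scaled to CPM. Log2 folds have exact conditional intervals and shares have exact Clopper-Pearson intervals, both at 95% and for counting error only. Genes with at least 100 UMIs over the selected cells of both libraries were compared, 2-fold was the limit for a count, and a count of 0 was read against a floor of 3 UMIs. With 1 library per group no test was made. Genes were named by a fixed rule: the 15 with the highest lower log2 fold over the other cells, the 10 largest differences between fractions in each direction, and members of 27 gene lists with at least 20 UMIs. The cells and the lists were chosen with earlier results of these data known. Other genes named were picked after their values were seen, and so were the Wnt1 and Epcam splits. Doublets were called with Scrublet in each library and kept. Alternatives covered the Sox10 and globin limits, the UMI minimum, unspliced counts, thinning and scaling. Scripts were checked on simulated data. Python 3.11.15, numpy 2.4.6, scipy 1.17.1, pandas 2.3.3, scanpy 1.11.5 and matplotlib 3.10.9 were used. The deposited tables are not the reads, so how reads of overlapping or divergent genes were assigned could not be changed here. Some genes of the lists are not reported here.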

Additional observations from a re-analysis of the deposited data

How the results depend on the processing

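The number of cells followed the Sox10 limit. At least 1 Sox10 UMI gave 218 tomPOS and 299 tomNEG cells (2.82% and 4.01% of low-globin cells), a Hox-positive share of 32.8% in tomNEG, 111 genes lower than in the other cells, 48 lower in tomPOS, and a reversed log2 fold of -0.07 for Cdx4. At least 3 gave 66 and 114 cells (0.855% and 1.53%), 13.2%, 34 and 14. Thinning to 5000 UMIs before the Sox10 limit left 17 and 41 cells (0.224% and 0.572%), with tomNEG above tomPOS under each of these limits. Without a globin limit the tomNEG share was 1.91%, and of all barcodes, a denominator chosen after seeing the data, it was 1.86%. The counts of genes followed depth. A minimum of 50 UMIs gave 131 higher and 157 lower genes against the other cells, and 29 higher and 54 lower in tomPOS. A minimum of 200 gave 49, 27, 9 and 14, and thinning to 5000 UMIs gave 31, 10, 5 and 4, where fewer UMIs leave fewer genes over the minimum. Adding unspliced UMIs gave 133 higher and 123 lower genes against the other cells and 23 higher in tomPOS. The Hox-positive share was 14.8% and 10.0% after thinning to 5000 UMIs, and 46.7% and 36.6% at 1 Hox or Otx2 UMI, where 6.40% of the tomNEG cells were Otx2-positive. Leaving out cells with at least 2 Epcam UMIs, chosen after seeing the data, left 0 Otx2-positive cells in tomPOS. Globin limits of 0.25% and 1% gave 122 and 171 cells and 123 and 173 cells, and also requiring a Foxd3 or Tfap2a UMI gave 116 and 161. Under these limits each count of cells and genes stayed within 1.5 times its reported value. Without the cells that Scrublet called, 115 and 163 cells remained (1.54% and 2.26%). Of 566 log2 folds of 27 named genes under the alternatives, 483 stayed within their intervals, 82 moved and 1 reversed. The cause of these changes was not tested where none is named. No paired analysis was possible because each fraction is 1 library and no test was made. With 1 library per fraction, differences between embryos, sorts and libraries cannot be told apart.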
